A study of Danio rerio with 6 samples.

Results

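Osteoblasts were compared with osteogenic mesenchymal progenitors (OMP) in regenerating caudal fins of zebrafish. The comparison used 4 of the 6 libraries of the study, namely the 2 titled Osteoblast and the 2 titled OMP. Each library holds the RNA of cells sorted by fluorescence from adult caudal fins at 14 days post amputation. Both groups came from fish of 1 genotype, on a background derived from the Tubingen strain, with 3 transgene loci. The first, cryaa:EGFP with sox9a:Cre-ERt2, expresses the Cre-ERt2 recombinase under sox9a control and marks carriers by EGFP in the lens. The next, Ola.Actb:loxp-TagBFP-loxp-EGFP, is a broadly active medaka actin reporter that recombination switches to EGFP. The last, Ola.Sp7:mCherry, drives mCherry from a medaka sp7 promoter in cells of the osteoblast lineage. By title, osteoblasts were EGFP-negative and sp7-positive, and OMP were positive for both. The labels do not say how many fish a library pooled, or whether replicates are separate fish. The p-values therefore reflect the spread of these particular libraries, which may be technical. The third group was chondrogenic mesenchymal progenitors (CMP, EGFP-positive and sp7-negative, 2 libraries). It entered the choice of transcript, the filter on low counts, the scaling and the estimate of the spread, but not the comparison itself.

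A fin ray consists of paired bony half-rays that enclose fibroblast-like mesenchyme, and both tissues regrow after amputation. Osteoblasts line the rays and secrete a collagen-rich matrix, which then mineralises with calcium phosphate. Their identity depends on the transcription factors Runx2 and Sp7 (osterix), and mesenchymal cells of the ray interior can enter the osteoblast lineage. In teleosts type X collagen, a cartilage protein of mammals, is also made by bone cells.

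The reporter reads did not follow the sort status in the titles. The mCherry transcript had 2455 and 8136 reads in the libraries titled osteoblast, against 6 and 62 in those titled OMP (edgeR log2 fold change 7.74, SE 0.93, adjusted p = 6.85e-04). Reads of the sp7 reporter thus came almost wholly from the osteoblast libraries, whereas the titles give both groups as sp7-positive. EGFP stood at 796 and 950.0 CPM (counts scaled to library size) in osteoblasts, although their title says EGFP-negative, and at 882 and 1115 CPM in OMP. That difference was not called (edgeR log2 fold change -0.19, SE 0.26, adjusted p = 0.831). The design text of the series calls the mesenchymal cells sp7-negative. The sample descriptions name the libraries titled osteoblast Ob-GR and Ob-GR2, and those titled OMP Ob-G and Ob-G2. The group names are used here as the titles give them. The Cre transgene had 0 reads in every library, and TagBFP, the colour lost on recombination, had 21.9 and 44.0 CPM in osteoblasts and 15.3 and 50.8 CPM in OMP (edgeR log2 fold change -0.02, SE 0.65, adjusted p = 0.996).

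With 1 transcript kept per gene, the osteoblast libraries held 3915569 and 5069316 reads and the OMP libraries 3922170 and 5281896. The 10 most abundant genes took 37.5 and 40.2% of the reads in osteoblasts, against 29.2 and 20.1% in OMP. A list of 22 heat shock genes, which respond to cell stress, took 16.3 and 7.54% of the reads in osteoblasts and 20.1 and 7.64% in OMP. Both groups were thus higher in replicate 1 than in replicate 2. Keratins and other markers of epidermis took 0.341 and 0.321% in osteoblasts, against 0.685 and 0.919% in OMP. In such bulk samples, fewer cells of a type and less RNA per cell cannot be told apart.

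Of 13399 genes tested with edgeR's quasi-likelihood test, 1087 (8.11%) had an adjusted p under 0.05 by the Benjamini-Hochberg method and are referred to as called. Of these, 431 were higher in osteoblasts (3.22% of the genes tested) and 656 were lower (4.9%). A fold change of at least 4 was reached by 311 of the genes called higher and 497 of those called lower. Among genes that averaged more than 1000 CPM in either group, 26 were called higher and 28 lower. The calls held without any 1 of the 6 libraries for 192 of the higher and 286 of the lower genes. The count of higher genes was 286 without osteoblast replicate 2 and 221 without OMP replicate 2, and the count of lower genes was 316 without osteoblast replicate 2. With the replicate number as a term (the replicate block), edgeR called 794 genes higher and 1109 lower, all 1087 above among them, and its adjusted p is given where it changes a call. Replicate numbers gave like differences: across the 13399 genes, the difference between osteoblasts and OMP of replicate 1 correlated with that of replicate 2 at r = 0.687, and 66.5% of genes had the same sign in both. This correlation is across genes, which are not independent replicates and share the libraries.

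**Figure D1:**
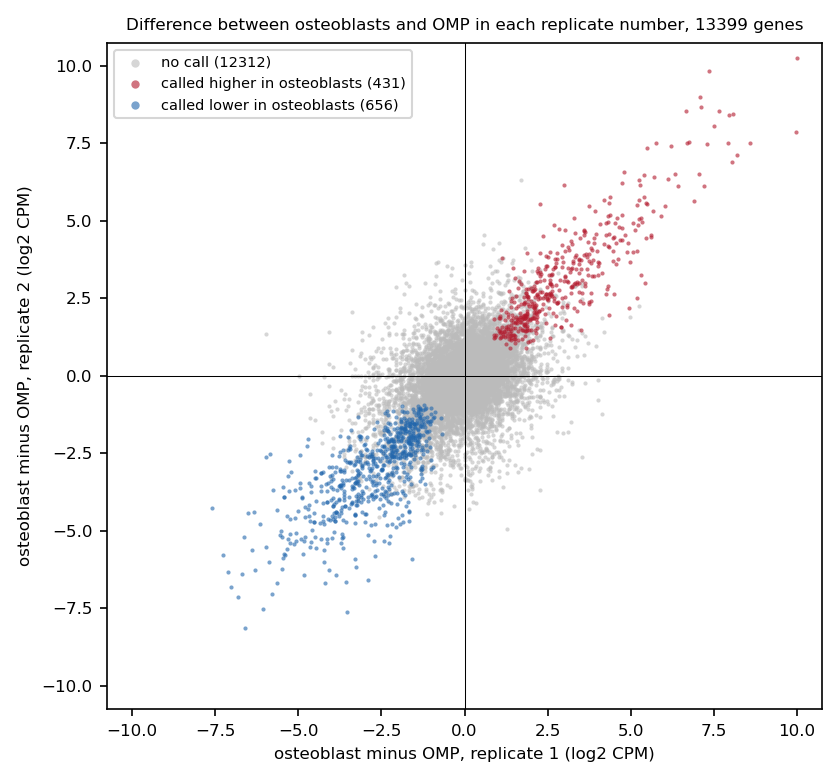
Each point is 1 of 13399 genes, placed by the difference in log2 CPM between osteoblasts and OMP in replicate 1 (x axis) and in replicate 2 (y axis). The 431 genes called higher in osteoblasts (red) lie where both differences are positive and the 656 called lower (blue) where both are negative, while genes without a call (grey) surround 0.

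The genes for the organic matrix and the mineral of bone were mostly higher in osteoblasts. Of 26 tested, 18 were called higher in osteoblasts and 1 was called lower, or 69.2 and 3.85%, against 3.22 and 4.9% over all genes. The median log2 fold change was 3.35, against -0.03 over all genes. All but 1 of the 18 held without any 1 of the libraries. The 32 genes of the list together took 18.6 and 26.1% of the reads on the kept transcripts in osteoblasts, against 1.51 and 1.95% in OMP.

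Type X collagen was the largest single contributor. The gene col10a1b had 76833 and 107801 CPM in osteoblasts and 1974 and 1525 CPM in OMP (edgeR log2 fold change 5.72, SE 0.45, adjusted p = 6.00e-05). Its paralogue col10a1a had 40876 and 50532 CPM in osteoblasts and 793 and 594 CPM in OMP (edgeR log2 fold change 6.04, SE 0.33, adjusted p = 1.64e-05). In both genes the osteoblast and OMP libraries lay more than an order of magnitude apart. The osteocalcin gene bglap, whose small Gla protein binds the mineral, had 55432 and 61260.4 CPM in osteoblasts and 1252 and 1291 CPM in OMP (edgeR log2 fold change 5.52, SE 0.33, adjusted p = 1.81e-05). Per kilobase of transcript, bglap averaged 156844 CPM in osteoblasts, ahead of col10a1b at 35561 and of the type I collagen gene col1a2 at 14958. The related bglapl had 17314 and 28793 CPM in osteoblasts, against 105 and 31.2 CPM in OMP (edgeR log2 fold change 8.42, SE 0.65, adjusted p = 5.31e-05). The OMP libraries differed from each other for bglapl more than for bglap, but both lay far under the osteoblast libraries. Reads shared between such near copies could be assigned to either one.

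Not every Gla protein gene differed. The gene mgp, which encodes matrix Gla protein, an inhibitor of mineralisation, had 438 and 383 CPM in osteoblasts and 560.0 and 616 CPM in OMP, without a call (edgeR log2 fold change -0.52, SE 0.29, adjusted p = 0.428). Of the acidic calcium-binding proteins, scpp1 was nearly absent from OMP, with 945 and 1110 reads in osteoblasts and 3 and 2 reads in OMP (edgeR log2 fold change 9.03, SE 0.50, adjusted p = 1.64e-05). Osteopontin (spp1) had 3592 and 2963 CPM in osteoblasts and 953 and 507 CPM in OMP (edgeR log2 fold change 2.17, SE 0.36, adjusted p = 0.00438). Osteonectin (sparc), which binds collagen, was abundant in both groups, at 32672 and 40356 CPM in osteoblasts and 8963 and 10508 CPM in OMP (edgeR log2 fold change 1.91, SE 0.27, adjusted p = 0.00156). The other scpp genes of the list were too low to test, with at most 6 reads in an osteoblast library and 22 in an OMP library.

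Genes that supply phosphate or regulate mineral followed, with 11 of 18 called higher and 1 lower. These are 61.1 and 5.56%, against 3.22 and 4.9% over all genes. The gene entpd5a, which encodes a nucleoside diphosphatase needed for bone mineralisation in zebrafish, had 5332 and 4904 CPM in osteoblasts and 231 and 159 CPM in OMP (edgeR log2 fold change 4.72, SE 0.35, adjusted p = 4.49e-05). The phosphatase gene phospho1, which releases phosphate inside matrix vesicles, had 98.8 and 174 CPM in osteoblasts and 2.19 and 1.75 CPM in OMP (edgeR log2 fold change 6.13, SE 0.51, adjusted p = 8.72e-05). For ifitm5, which encodes the osteoblast membrane protein BRIL, the values were 2412 and 3711 CPM in osteoblasts and 12.9 and 13.4 CPM in OMP (edgeR log2 fold change 7.86, SE 0.45, adjusted p = 1.77e-05). The phosphate transporter gene slc20a1a had 67.7 and 41.9 CPM in osteoblasts and 2.46 and 1.75 CPM in OMP (edgeR log2 fold change 4.72, SE 0.51, adjusted p = 3.50e-04). Its paralogue slc20a1b, where the groups overlapped, had 253 and 129.9 CPM in osteoblasts and 259 and 128 CPM in OMP (edgeR log2 fold change -0.01, SE 0.45, adjusted p = 0.995). The channel gene panx3 (edgeR log2 fold change 7.75, SE 0.44, adjusted p = 1.77e-05), the sphingomyelinase gene smpd3 (edgeR log2 fold change 4.60, SE 0.64, adjusted p = 0.00121) and the endopeptidase gene phex, whose loss in mammals causes phosphate wasting (edgeR log2 fold change 2.64, SE 0.33, adjusted p = 8.85e-04), were also higher in osteoblasts. Both genes for the secretory kinase Fam20C rose as well, with log2 fold changes of 4.07 (SE 0.62) for fam20ca and 2.19 (SE 0.34) for fam20cb. The pyrophosphate channel gene ankhb was called higher too (edgeR log2 fold change 2.36, SE 0.50, adjusted p = 0.0158), but lost its call without osteoblast replicate 1 (adjusted p = 0.072) or OMP replicate 1 (0.077). The carbonic anhydrase gene cahz, which also marks red blood cells, had 751 and 1322 reads in osteoblasts and 5 and 1 in OMP (edgeR log2 fold change 8.72, SE 0.67, adjusted p = 1.81e-05).

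The exception was tissue-nonspecific alkaline phosphatase, a classical osteoblast enzyme. Its gene alpl had 42.9 and 30.0 CPM in osteoblasts and 161 and 97.4 CPM in OMP and was called lower in osteoblasts (edgeR log2 fold change -1.83, SE 0.43, adjusted p = 0.0284). The call was lost without osteoblast replicate 1 (adjusted p = 0.062), osteoblast replicate 2 (0.197) or OMP replicate 1 (0.158), with the same sign each time. The gene enpp1, whose product makes the mineral inhibitor pyrophosphate, was not called, at 359 and 452 CPM in osteoblasts and 734 and 799 CPM in OMP (edgeR log2 fold change -0.92, SE 0.28, adjusted p = 0.0809), with an adjusted p of 0.00315 in the replicate block. The phosphate transporter gene slc20a2 had 49.7 and 66.2 CPM in osteoblasts and 27.6 and 25.02 CPM in OMP (edgeR log2 fold change 1.14, SE 0.34, adjusted p = 0.0723), with an adjusted p of 0.0118 in the replicate block. No call was made for panx1a, ca2 or ankha either.

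**Figure D2:**
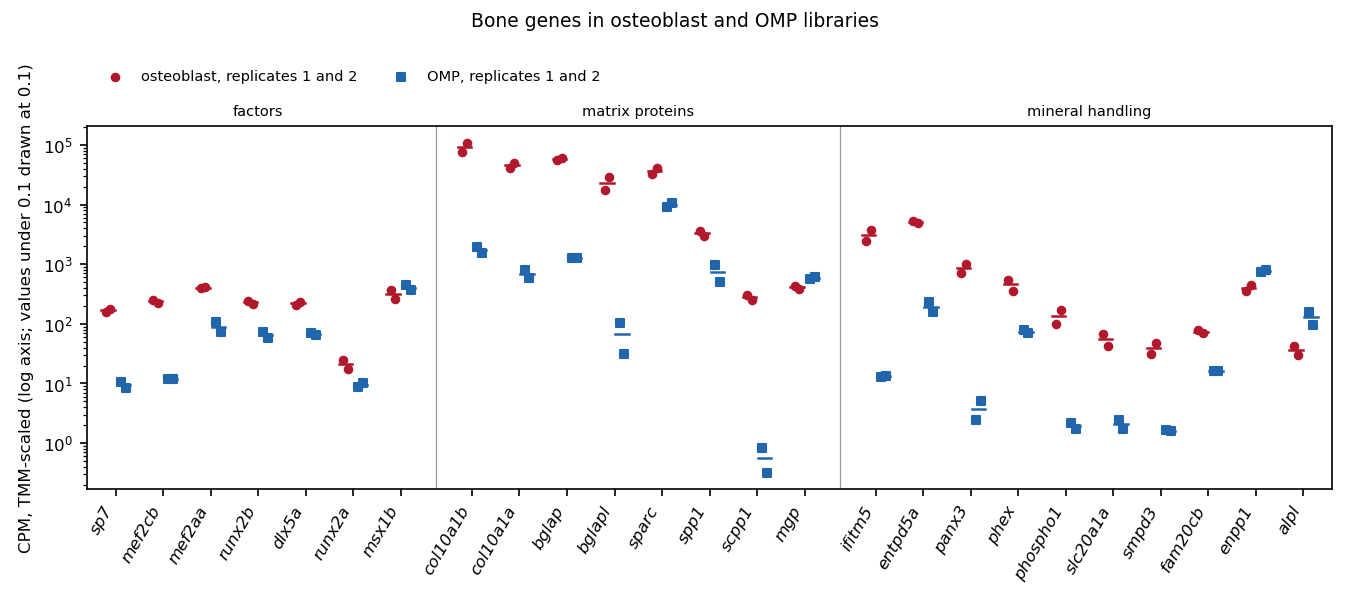
CPM (log axis) of bone genes in the 2 osteoblast libraries (red circles, left of each pair) and the 2 OMP libraries (blue squares), with horizontal lines at the group means. The groups are apart for most genes shown, overlap for msx1b, and are in the opposite order for mgp, enpp1 and alpl.

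Of 20 osteoblast transcription factor genes tested, 10 were called higher in osteoblasts and 0 lower, or 50 and 0%, against 3.22 and 4.9% over all genes. The median log2 fold change was 1.63. At an unadjusted p under 0.05, 0 were lower, and DESeq2 called 0 lower. The zebrafish sp7 gene, whose medaka counterpart gave the promoter of the mCherry reporter, had 161 and 175 CPM in osteoblasts and 10.4 and 8.45 CPM in OMP (edgeR log2 fold change 4.16, SE 0.35, adjusted p = 8.72e-05). The Mef2 family gene mef2cb followed it closely, with 256 and 220.0 CPM in osteoblasts and 12.04 and 11.8 CPM in OMP (edgeR log2 fold change 4.32, SE 0.33, adjusted p = 4.28e-05). In both genes each osteoblast library was more than 10-fold above each OMP library.

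Other members of the same families changed less or were not called. The gene runx2b had 244 and 214 CPM in osteoblasts and 72.2 and 57.7 CPM in OMP (edgeR log2 fold change 1.82, SE 0.29, adjusted p = 0.00366). Its paralogue runx2a had 25.2 and 17.6 CPM in osteoblasts and 8.75 and 10.0 CPM in OMP without a call (edgeR log2 fold change 1.17, SE 0.44, adjusted p = 0.178). Among distal-less homeobox genes, dlx5a rose (edgeR log2 fold change 1.71, SE 0.29, adjusted p = 0.0049), whereas dlx2a had 54.6 and 82.7 CPM in osteoblasts and 83.4 and 58.5 CPM in OMP, where the groups overlapped (edgeR log2 fold change -0.04, SE 0.34, adjusted p = 0.983). The muscle segment homeobox gene msx1b, which is active in regenerating fins, was not called either, at 376 and 266 CPM in osteoblasts and 439.9 and 362 CPM in OMP (edgeR log2 fold change -0.32, SE 0.29, adjusted p = 0.693). The Mef2 gene mef2aa rose (edgeR log2 fold change 2.18, SE 0.32, adjusted p = 0.00218), while mef2d had 22.9 and 15.4 CPM in osteoblasts and 21.1 and 15.14 CPM in OMP (edgeR log2 fold change 0.08, SE 0.43, adjusted p = 0.973). The genes atf4a and atf4b, for stress-responsive factors active in osteoblasts, were not called, with log2 fold changes of 0.55 (SE 0.36) and 0.48 (SE 0.41), and neither were dlx4a, dlx4b, dlx6a and msx2b, although dlx4a was with the replicate block (edgeR adjusted p = 0.026).

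Of the 10 factors called, 6 held without any 1 of the libraries. The gene dlx3b (edgeR log2 fold change 1.55, SE 0.28, adjusted p = 0.00748) lost its call without OMP replicate 2 (adjusted p = 0.061), and mef2ca (edgeR log2 fold change 2.71, SE 0.53, adjusted p = 0.0103) lost it without osteoblast replicate 1 (0.0643) or OMP replicate 2 (0.0732). The low gene dlx2b, with 39 and 100 reads in osteoblasts and 3 and 32 in OMP, lost it in 4 of the 6 cases (edgeR log2 fold change 2.45, SE 0.65, adjusted p = 0.0462). The gene msx2a had 13 and 17 reads in osteoblasts and 0 in both OMP libraries, at least 13.4-fold higher in osteoblasts against a floor of 3 reads over the group, and was not called without any 1 of the libraries.

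Collagen genes were called in both directions, also within types V, XI and XXVII. Of 44 chains tested, 7 were called higher in osteoblasts and 20 lower, or 15.9 and 45.5%, against 3.22 and 4.9% over all genes. The median log2 fold change was -1.88, and 7 of the higher and 14 of the lower calls held without any 1 of the libraries. The share of reads on collagen genes was nevertheless larger in osteoblasts, at 21.2 and 25.7%, against 11.6 and 12.2% in OMP.

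Type I collagen, the main fibre of bone, was called higher in 1 of its 3 chain genes. The gene col1a1a had 22362 and 17601 CPM in osteoblasts and 6769.6 and 6291 CPM in OMP (edgeR log2 fold change 1.61, SE 0.26, adjusted p = 0.00354). Its duplicate col1a1b had 31316 and 35119 CPM in osteoblasts and 37034 and 31691 CPM in OMP, where the groups overlapped (edgeR log2 fold change -0.05, SE 0.25, adjusted p = 0.972). The gene col1a2 had 82649 and 75428 CPM in osteoblasts and 50789 and 42658 CPM in OMP and was not called (edgeR log2 fold change 0.76, SE 0.26, adjusted p = 0.122), but was with the replicate block (edgeR adjusted p = 0.00574).

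Duplicated genes of the minor fibril collagens V and XI went in opposite directions. The type V chain gene col5a2b had 5901 and 4191 CPM in osteoblasts, against 28.7 and 10.8 CPM in OMP (edgeR log2 fold change 8.03, SE 0.58, adjusted p = 4.37e-05). Its duplicate col5a2a had 1302 and 781 CPM in osteoblasts, against 5899 and 4295 CPM in OMP (edgeR log2 fold change -2.29, SE 0.35, adjusted p = 0.00265). In each the library values of the groups did not overlap, so the OMP libraries were rich in col5a2a and nearly devoid of col5a2b. Type XI collagen, a partner of type II in cartilage, showed the same split between col11a1b and col11a1a. The gene col11a1b had 1636 and 1323 CPM in osteoblasts and 383 and 261 CPM in OMP (edgeR log2 fold change 2.2004, SE 0.30, adjusted p = 0.00139). The gene col11a1a had 31.7 and 34.1 CPM in osteoblasts and 120.4 and 109 CPM in OMP (edgeR log2 fold change -1.80, SE 0.30, adjusted p = 0.00474). The third chain gene, col11a2, had 4264 and 2995 CPM in osteoblasts and 15.3 and 8.13 CPM in OMP (edgeR log2 fold change 8.31, SE 0.75, adjusted p = 1.16e-04).

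The lower calls included chains of microfibrils and of basement membrane, although others such as col14a1a, col15a1b, col4a5 and col4a6 had no call. The microfibril-forming type VI chain genes col6a1 (edgeR log2 fold change -2.65, SE 0.27, adjusted p = 2.60e-04), col6a2 (edgeR log2 fold change -2.52, SE 0.28, adjusted p = 3.83e-04) and col6a3 (edgeR log2 fold change -3.02, SE 0.44, adjusted p = 0.00202) were all lower. The type VI chain gene col6a4a fell further, to 2.62 and 8.48 CPM in osteoblasts, against 475 and 493 CPM in OMP (edgeR log2 fold change -6.37, SE 0.47, adjusted p = 4.48e-05). The type V chain genes col5a1 (edgeR log2 fold change -2.21, SE 0.37, adjusted p = 0.00488) and col5a3b (edgeR log2 fold change -6.47, SE 0.54, adjusted p = 8.72e-05), the type XVI gene col16a1 (edgeR log2 fold change -3.67, SE 0.33, adjusted p = 1.11e-04) and the type XII gene col12a1b (edgeR log2 fold change -2.96, SE 0.40, adjusted p = 0.00136) fell as well. Its duplicate col12a1a, with 946 and 557 CPM in osteoblasts and 2306 and 1436 CPM in OMP, was not called (edgeR log2 fold change -1.32, SE 0.36, adjusted p = 0.0536), with an adjusted p of 1.97e-04 in the replicate block. The basement membrane genes col4a1 and col4a2 were nearly silent in osteoblasts. The gene col4a1 had 4.91 and 1.15 CPM in osteoblasts and 77.4 and 32.5 CPM in OMP (edgeR log2 fold change -4.27, SE 0.66, adjusted p = 0.00302), and col4a2 had 4.25 and 1.83 CPM in osteoblasts and 80.7 and 55.8 CPM in OMP (edgeR log2 fold change -4.54, SE 0.53, adjusted p = 5.52e-04).

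**Figure D3:**
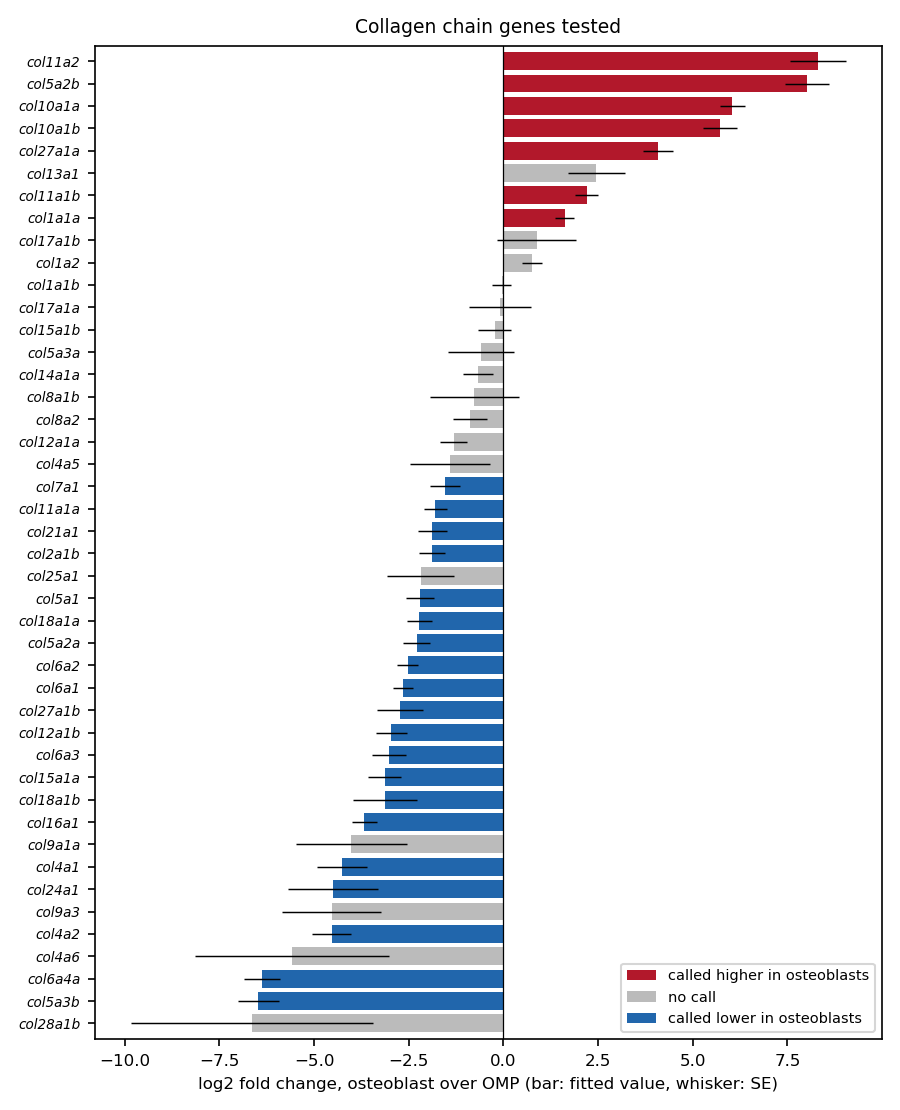
Fitted log2 fold change of osteoblasts over OMP for the 44 collagen chain genes tested, with SE as whiskers. The 7 genes called higher (red) run from col1a1a at 1.61 to col11a2 at 8.31, the 20 called lower (blue) reach -6.47 for col5a3b, and long whiskers mark genes with few reads in either group.

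Genes for the modification, folding, cleavage and cross-linking of collagen were called higher in 8 of 37 cases and lower in 1. These are 21.6 and 2.7%, against 3.22 and 4.9% over all genes. Of the 8 higher calls, 4 were among 16 genes for chaperones and propeptide proteases. The procollagen N-proteinase gene adamts2 is not in this list and was called lower (edgeR log2 fold change -2.10, SE 0.28, adjusted p = 0.00135). The lysyl hydroxylase gene plod2, whose enzyme prepares the collagen cross-links typical of bone, had 458 and 464 CPM in osteoblasts and 30.1 and 20.7 CPM in OMP (edgeR log2 fold change 4.19, SE 0.36, adjusted p = 9.90e-05). The lysyl oxidase gene loxl4 had 817 and 707 CPM in osteoblasts and 35.6 and 31.2 CPM in OMP (edgeR log2 fold change 4.51, SE 0.30, adjusted p = 3.33e-05), whereas its relative loxl1 had 0.982 and 2.75 CPM in osteoblasts and 18.6 and 25.02 CPM in OMP (edgeR log2 fold change -3.45, SE 0.55, adjusted p = 0.00354). The enhancer of procollagen cleavage pcolceb had 878 and 821 CPM in osteoblasts and 35.6 and 60.4 CPM in OMP (edgeR log2 fold change 4.14, SE 0.43, adjusted p = 2.86e-04). These 4 genes kept their calls without any 1 of the libraries, while the number of higher genes in the list was 4 without osteoblast replicate 2 and 4 without OMP replicate 1, and the block gave 3 lower. The collagen chaperone gene serpinh1b differed by replicate number instead, with 9948 and 2701 CPM in osteoblasts and 10225 and 2143 CPM in OMP (edgeR log2 fold change 0.03, SE 0.72, adjusted p = 0.993).

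The general secretory pathway gave few calls. Of 69 genes tested, 1 was called higher and 0 lower, or 1.45 and 0%, against 3.22 and 4.9% over all genes. The median log2 fold change was 0.22. At an unadjusted p under 0.05, 5 were higher and 1 lower, and DESeq2 called 2 higher and 0 lower. With the replicate block, 6 were called higher and 1 lower. The called gene was creb3l1, a regulator of collagen secretion in bone, with 166 and 118 CPM in osteoblasts and 70.6 and 49.2 CPM in OMP (edgeR log2 fold change 1.25, SE 0.33, adjusted p = 0.0479). Its call was lost without any 1 of the 6 libraries, with adjusted p from 0.0714 without OMP replicate 1 to 0.303 without OMP replicate 2. The stress sensor target xbp1 had 1939 and 1711 CPM in osteoblasts and 1569 and 1342 CPM in OMP (edgeR log2 fold change 0.33, SE 0.26, adjusted p = 0.639).

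Among non-collagenous matrix genes, lower calls outnumbered higher ones. Of 54 small proteoglycan and fibrous matrix genes, 6 were called higher and 25 lower, or 11.1 and 46.3%, against 3.22 and 4.9% over all genes. The median log2 fold change was -1.48. All 6 higher and 16 of the lower calls held without any 1 of the libraries, and leaving out osteoblast replicate 2 left 16 lower calls. Within the small leucine-rich proteoglycans the 2 biglycan genes were higher and decorin and lumican lower. The gene bgna had 3290.2 and 3928 CPM in osteoblasts and 90.01 and 85.3 CPM in OMP (edgeR log2 fold change 5.36, SE 0.31, adjusted p = 1.79e-05). Its duplicate bgnb had 234 and 180.3 CPM in osteoblasts and 2.74 and 0.637 CPM in OMP (edgeR log2 fold change 7.11, SE 0.54, adjusted p = 5.02e-05). Decorin (dcn), which organises collagen fibrils in soft tissue, had 515 and 467 CPM in osteoblasts and 2450.2 and 2690.3 CPM in OMP (edgeR log2 fold change -2.39, SE 0.26, adjusted p = 3.89e-04). Lumican (lum) had 1382 and 1119.8 CPM in osteoblasts and 4877 and 6838 CPM in OMP (edgeR log2 fold change -2.23, SE 0.29, adjusted p = 0.00103). The gene aspn, for asporin, had 847 and 521 CPM in osteoblasts and 726 and 742 CPM in OMP, with overlapping groups (edgeR log2 fold change -0.10, SE 0.30, adjusted p = 0.939). Chondroadherin (chad), a collagen-binding protein of cartilage and bone, rose (edgeR log2 fold change 3.10, SE 0.34, adjusted p = 3.66e-04).

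Periostin, a matrix protein of periosteum and regenerating tissue, was lower in osteoblasts in both of its genes. The gene postnb had 661 and 518 CPM in osteoblasts and 6294 and 9372 CPM in OMP (edgeR log2 fold change -3.73, SE 0.31, adjusted p = 8.72e-05). The gene postna had 9.49 and 10.5 CPM in osteoblasts and 298 and 418 CPM in OMP (edgeR log2 fold change -5.15, SE 0.38, adjusted p = 4.48e-05). Of 43 glycoprotein and fibrillin genes, 3 were called higher, 19 lower and 21 had no call. Elastic fibre genes were not counted as a list. Of such genes, elna, for elastin (edgeR log2 fold change -3.43, SE 0.36, adjusted p = 3.06e-04), mfap5, for a microfibril protein (edgeR log2 fold change -3.15, SE 0.35, adjusted p = 4.11e-04), and fbn1, for fibrillin (edgeR log2 fold change -2.76, SE 0.33, adjusted p = 6.75e-04), were lower and were picked after their values were seen. The gene fbln2, for a fibulin, was lower as well (edgeR log2 fold change -4.16, SE 0.38, adjusted p = 1.32e-04). Tenascin C (tnc), a matrix protein of regenerating and tendon tissue, had 11.1 and 13.3 CPM in osteoblasts and 84.0 and 84.5 CPM in OMP (edgeR log2 fold change -2.78, SE 0.35, adjusted p = 8.55e-04), and this call was lost when the longest transcript stood for the gene (adjusted p = 0.293). Thrombospondin genes diverged, with thbs1b higher (edgeR log2 fold change 2.59, SE 0.30, adjusted p = 5.71e-04) and thbs2b lower (edgeR log2 fold change -3.67, SE 0.38, adjusted p = 2.65e-04) in osteoblasts. Keratocan (kera) had 0 and 1 reads in osteoblasts and 62 and 92 in OMP, a ratio of OMP to osteoblast reads of 115 (exact 95% counting interval 20.4 to 4574). Markers of epidermis also took a smaller share of reads in osteoblasts, as given above, and their part in the lower matrix genes was not tested.

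Cartilage and tendon genes were called in both directions. Of 15 cartilage genes, 3 were called higher and 5 lower, or 20 and 33.3%, against 3.22 and 4.9% over all genes. The lower count was 3 without osteoblast replicate 2. The gene ucmaa, for a Gla-rich protein of cartilage, had 109 and 151 CPM in osteoblasts and 2523 and 3291 CPM in OMP (edgeR log2 fold change -4.48, SE 0.32, adjusted p = 4.28e-05). The link protein gene hapln1a had 349 and 321 CPM in osteoblasts and 395 and 502 CPM in OMP without a call (edgeR log2 fold change -0.42, SE 0.26, adjusted p = 0.483). Of 4 cartilage factor genes tested, 1 was called higher and 0 lower, and the higher count was 0 without OMP replicate 2. The cartilage factor gene sox9a, which drives the Cre of the fish, was not called. It was low in both groups, with 12.1 and 7.79 CPM in osteoblasts and 10.9 and 7.17 CPM in OMP (edgeR log2 fold change 0.14, SE 0.46, adjusted p = 0.95). Among 14 tendon and ligament genes, 2 were called higher and 4 lower, or 14.3 and 28.6%. These calls held without any 1 of the libraries, and log2 fold changes in the list ran from -8.75 to 3.58. The type XII collagen gene col12a1b, given above, was among the 4 lower ones. The replicate block gave 7 lower. The 2 higher ones were tnmd, for tenomodulin, with 2912 and 2063 CPM in osteoblasts and 195 and 221 CPM in OMP (edgeR log2 fold change 3.58, SE 0.30, adjusted p = 8.57e-05), and mkxa, for the tendon factor Mohawk, with 70.35 and 111 CPM in osteoblasts and 7.39 and 10.5 CPM in OMP (edgeR log2 fold change 3.31, SE 0.42, adjusted p = 9.05e-04).

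Genes of fin mesenchyme, where called, were mostly lower in osteoblasts. Of 31 tested, 1 was called higher and 12 lower in osteoblasts, or 3.23 and 38.7%, against 3.22 and 4.9% over all genes. The median log2 fold change was -1.49, and 7 of the 12 lower calls held without any 1 of the libraries. The phenylalanine hydroxylase gene pah had 32.4 and 24.98 CPM in osteoblasts and 1110.5 and 1031 CPM in OMP (edgeR log2 fold change -5.23, SE 0.31, adjusted p = 1.81e-05). The odd-skipped gene osr1, a factor of connective tissue fibroblasts, had 12.4 and 7.10 CPM in osteoblasts and 126 and 201 CPM in OMP (edgeR log2 fold change -4.09, SE 0.43, adjusted p = 3.07e-04). Actinodins build the stiff fibrils of the fin fold, and and1 had 1.31 and 20.2 CPM in osteoblasts and 141 and 433 CPM in OMP, higher in replicate 2 of each group (edgeR log2 fold change -4.67, SE 0.83, adjusted p = 0.00636). The gene and2 had 0 and 3 reads in osteoblasts and 44 and 379 in OMP, a ratio of OMP to osteoblast reads of 105 (exact 95% counting interval 35.8 to 513). Leptin b (lepb), a gene switched on in regenerating fins, had 2 and 0 reads in osteoblasts and 151 and 112 in OMP, a ratio of OMP to osteoblast reads of 98.3 (exact 95% counting interval 26.9 to 816).

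Of 15 mesenchymal factor genes in the list, 4 were called lower, or 26.7%, against 4.9% over all genes, osr1 among them. The gene prrx1b fell to 8.51 and 6.65 CPM in osteoblasts, against 41.3 and 63.6 CPM in OMP (edgeR log2 fold change -2.81, SE 0.40, adjusted p = 0.0017). Its paralogue prrx1a had 273 and 280.5 CPM in osteoblasts and 521 and 558 CPM in OMP and was not called (edgeR log2 fold change -0.96, SE 0.30, adjusted p = 0.0871), with an adjusted p of 0.00819 in the replicate block. The gene twist1a had 168 and 129 CPM in osteoblasts and 316 and 167 CPM in OMP (edgeR log2 fold change -0.70, SE 0.34, adjusted p = 0.336), and the receptor gene pdgfra had 43.5 and 26.6 CPM in osteoblasts and 102 and 56.7 CPM in OMP (edgeR log2 fold change -1.18, SE 0.54, adjusted p = 0.285), with an adjusted p of 0.0152 in the replicate block. Of 22 Hox genes edgeR called 0, with 0 higher and 0 lower at an unadjusted p under 0.05, and DESeq2 called 0 higher and 0 lower. The posterior gene hoxa13b, which marks distal fin tissue, had 205 and 178 CPM in osteoblasts and 216 and 172 CPM in OMP (edgeR log2 fold change -0.02, SE 0.27, adjusted p = 0.991).

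Other single genes for metabolism and transport were also lower. The gene hpdb, for a dioxygenase of tyrosine breakdown, had 66.1 and 36.9 CPM in osteoblasts and 1341 and 1431 CPM in OMP (edgeR log2 fold change -4.76, SE 0.40, adjusted p = 8.72e-05). The gene gstz1, for a maleylacetoacetate isomerase, had 35.3 and 45.1 CPM in osteoblasts and 187 and 188 CPM in OMP (edgeR log2 fold change -2.21, SE 0.29, adjusted p = 0.00123). The serotonin transporter gene slc6a4a had 0 and 0 reads in osteoblasts and 73 and 93 in OMP, which puts it at least 41.4-fold lower in osteoblasts against a floor of 3 reads over the group.

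Several genes by which bone-forming cells act on osteoclasts, the cells that resorb bone, were lower in osteoblasts than in OMP. Of 16 genes for bone hormones and osteoclast coupling, 5 were called lower and 2 higher, or 31.2 and 12.5%. Over all genes the shares were 4.9 and 3.22%. The 5 lower calls held without any 1 of the libraries. The 2 genes called higher, fgf23 and ghra, both lost their calls without osteoblast replicate 1, OMP replicate 1 or OMP replicate 2, fgf23 also without osteoblast replicate 2 and ghra also without CMP replicate 1. Those 2 genes encode a phosphate hormone and a growth hormone receptor. Macrophage colony-stimulating factor, which osteoclast precursors need, is encoded by 2 genes. The gene csf1b had 16.03 and 10.999 CPM in osteoblasts and 218 and 248 CPM in OMP (edgeR log2 fold change -4.12, SE 0.36, adjusted p = 1.01e-04). The gene csf1a had 45.8 and 29.1 CPM in osteoblasts and 199.7 and 409.5 CPM in OMP (edgeR log2 fold change -3.03, SE 0.41, adjusted p = 0.00136). RANK ligand (tnfsf11), the main signal for osteoclast formation, had 2 and 0 reads in osteoblasts and 99 and 67 in OMP, a ratio of OMP to osteoblast reads of 62.0 (exact 95% counting interval 16.9 to 516). Sclerostin (sost), a Wnt and BMP antagonist that mammalian osteocytes secrete, had 3 and 0 reads in osteoblasts and 93 and 275 in OMP, a ratio of 91.7 (exact 95% counting interval 31.1 to 446). The receptor gene tnfrsf11a, for RANK, is not in the list of 16 genes and so not in its counts. It was called higher, with 335 and 226 CPM in osteoblasts and 105 and 55.0 CPM in OMP (edgeR log2 fold change 1.82, SE 0.37, adjusted p = 0.0132). Its call was lost without osteoblast replicate 1 (adjusted p = 0.0715) or OMP replicate 2 (0.0967). Osteoclast markers gave 0 calls of 5 in edgeR, with 0 higher and 1 lower at an unadjusted p under 0.05 and 0 higher and 0 lower by DESeq2.

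A peptide and a receptor of the calcitonin gene family went opposite ways. The receptor gene calcrlb had 1.64 and 3.21 CPM in osteoblasts and 61.6 and 55.0 CPM in OMP (edgeR log2 fold change -4.52, SE 0.47, adjusted p = 3.03e-04). The peptide gene adm2a, for adrenomedullin 2, had 489.8 and 341 CPM in osteoblasts and 4.38 and 0.478 CPM in OMP (edgeR log2 fold change 7.63, SE 0.71, adjusted p = 1.50e-04).

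Of the secreted signals, Wnt pathway genes were called lower in 11 of 57 cases and higher in 4, or 19.3 and 7.02%. Over all genes the shares were 4.9% lower and 3.22% higher. The lower count was 6 without osteoblast replicate 2 and 7 without OMP replicate 2, and the higher count was 2 without osteoblast replicate 1, 0 without OMP replicate 2 and 8 with the replicate block. Antagonists made up 7 of the 11 lower genes and 2 of the 4 higher ones, namely dkk1a and kremen1, the gene of a Dkk receptor. Secreted frizzled-related proteins bind Wnt ligands, and sfrp2 had 101 and 98.1 CPM in osteoblasts and 1023 and 1199 CPM in OMP (edgeR log2 fold change -3.48, SE 0.31, adjusted p = 1.16e-04). The gene sfrp1a had 14.4 and 15.4 CPM in osteoblasts and 185 and 174 CPM in OMP (edgeR log2 fold change -3.59, SE 0.38, adjusted p = 3.03e-04), and sfrp1b had 1.31 and 2.29 CPM in osteoblasts and 159 and 58.6 CPM in OMP (edgeR log2 fold change -5.84, SE 0.64, adjusted p = 3.75e-04). The gene notum1b, for an enzyme that inactivates Wnt, fell as well (edgeR log2 fold change -2.69, SE 0.31, adjusted p = 5.49e-04). The antagonist gene dkk3b was not called, with 207 and 240.4 CPM in osteoblasts and 205 and 253 CPM in OMP (edgeR log2 fold change -0.03, SE 0.28, adjusted p = 0.982). Among ligands, wnt5a had 0.982 and 1.83 CPM in osteoblasts and 34.5 and 26.3 CPM in OMP (edgeR log2 fold change -4.34, SE 0.51, adjusted p = 5.49e-04). Nuclear effectors and targets of the pathway had 0 edgeR calls of 11, with 2 higher and 1 lower at an unadjusted p under 0.05 and 1 higher and 0 lower by DESeq2.

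Of 50 genes of the BMP pathway, 9 were called higher and 9 lower, or 18% each, against 3.22 and 4.9% over all genes. Ligands were called higher in 5 of 13 cases and lower in 1, and the higher count was 3 without osteoblast replicate 1, OMP replicate 1 or OMP replicate 2. Antagonists and modulators were called higher in 3 of 18 cases and lower in 8. The ligand gene bmp8a had 289.9 and 370.3 CPM in osteoblasts and 6.02 and 7.49 CPM in OMP (edgeR log2 fold change 5.59, SE 0.36, adjusted p = 2.52e-05). The gene bmp2b, for a strong inducer of bone, had 39.9 and 33.5 CPM in osteoblasts and 6.57 and 5.42 CPM in OMP (edgeR log2 fold change 2.62, SE 0.43, adjusted p = 0.00359). The more abundant bmp4 had 417 and 209 CPM in osteoblasts and 237 and 137 CPM in OMP, where the groups overlapped (edgeR log2 fold change 0.75, SE 0.39, adjusted p = 0.374), with an adjusted p of 0.0429 in the replicate block.

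Of the antagonists called lower, nbl1 had 3.93 and 1.37 CPM in osteoblasts and 427 and 511 CPM in OMP (edgeR log2 fold change -7.54, SE 0.51, adjusted p = 3.33e-05). Follistatin (fstb), which traps activin and BMP, had 8.83 and 5.50 CPM in osteoblasts and 152 and 149 CPM in OMP (edgeR log2 fold change -4.42, SE 0.37, adjusted p = 8.99e-05). Gremlin genes followed, with grem2b at 8.18 and 10.1 CPM in osteoblasts and 84.0 and 234 CPM in OMP (edgeR log2 fold change -4.11, SE 0.52, adjusted p = 9.27e-04). The gene grem1b had 0 reads in both osteoblast libraries and 111 and 71 in OMP, at least 45.3-fold lower in osteoblasts against a floor of 3 reads over the group. The 3 genes called higher were bambia (edgeR log2 fold change 2.06, SE 0.33, adjusted p = 0.00361) and bambib (edgeR log2 fold change 2.81, SE 0.32, adjusted p = 4.73e-04), for a membrane pseudoreceptor that BMP signalling induces, and the BMP-binding bmper (edgeR log2 fold change 4.16, SE 0.55, adjusted p = 0.00122).

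**Figure D4:**
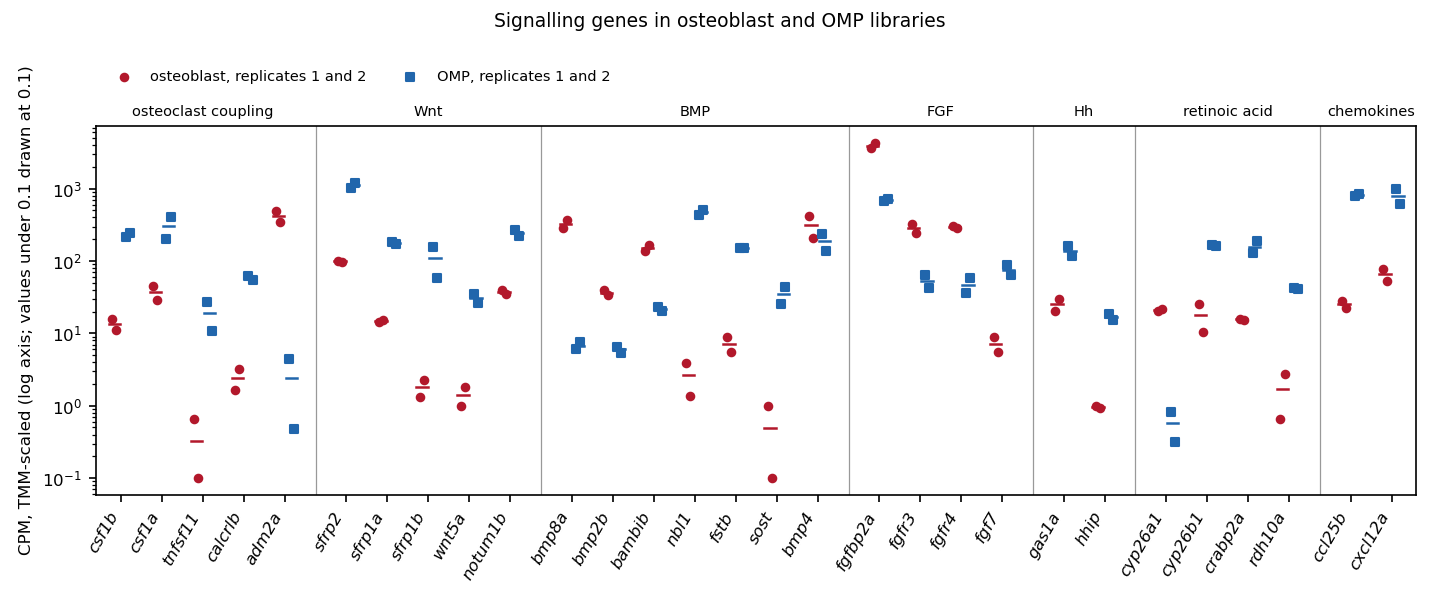
CPM (log axis, values under 0.1 drawn at 0.1) of signalling genes in the 2 osteoblast libraries (red circles, left of each pair) and the 2 OMP libraries (blue squares), with lines at the group means. The genes adm2a, bmp8a, bmp2b, bambib, fgfbp2a, fgfr3, fgfr4 and cyp26a1 are higher in osteoblasts, bmp4 overlaps, and the other genes shown are higher in OMP.

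FGF genes were called higher in 4 of 32 cases and lower in 7, or 12.5 and 21.9%, against 3.22 and 4.9% over all genes. Of these, 3 higher and 4 lower calls held without any 1 of the libraries. The lower count was 5 without osteoblast replicate 2. The receptor gene fgfr3, which is active in cartilage and bone, had 325 and 241 CPM in osteoblasts and 63.2 and 42.1 CPM in OMP (edgeR log2 fold change 2.43, SE 0.33, adjusted p = 0.00136). The receptor gene fgfr4 had 308 and 286 CPM in osteoblasts and 35.8 and 58.2 CPM in OMP (edgeR log2 fold change 2.65, SE 0.44, adjusted p = 0.00436). The binding protein gene fgfbp2a was the most abundant of these, with 3638 and 4259 CPM in osteoblasts and 674 and 720.1 CPM in OMP (edgeR log2 fold change 2.50, SE 0.40, adjusted p = 0.00332). The mesenchymal ligand gene fgf7 had 8.83 and 5.50 CPM in osteoblasts and 88.6 and 63.6 CPM in OMP (edgeR log2 fold change -3.43, SE 0.44, adjusted p = 0.00104). Also lower were the heparan sulfatase gene sulf1 (edgeR log2 fold change -2.56, SE 0.39, adjusted p = 0.00265) and the feedback inhibitor gene il17rd (edgeR log2 fold change -2.77, SE 0.43, adjusted p = 0.00297).

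Retinoic acid genes were called lower in 8 of 22 cases and higher in 2, or 36.4 and 9.09%, against 4.9 and 3.22% over all genes. The lower count was 5 without osteoblast replicate 2, and the higher count was 1 without any 1 of the libraries other than osteoblast replicate 2. The enzymes that degrade retinoic acid went opposite ways. The gene cyp26b1 had 25.8 and 10.3 CPM in osteoblasts and 169 and 162 CPM in OMP (edgeR log2 fold change -3.22, SE 0.41, adjusted p = 9.05e-04). The gene cyp26a1 had 63 and 96 reads in osteoblasts and 3 and 2 in OMP (edgeR log2 fold change 5.31, SE 0.94, adjusted p = 0.00489). The binding protein gene crabp2a had 16.03 and 15.12 CPM in osteoblasts and 127 and 187 CPM in OMP (edgeR log2 fold change -3.34, SE 0.36, adjusted p = 3.58e-04). The gene rdh10a, for an enzyme of retinoic acid synthesis, had 0.654 and 2.75 CPM in osteoblasts and 41.9 and 41.4 CPM in OMP (edgeR log2 fold change -4.48, SE 0.55, adjusted p = 7.73e-04).

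In Hedgehog signalling 4 of 16 genes were called lower and 1 higher, or 25 and 6.25%, against 4.9 and 3.22% over all genes. The lower ones included the co-receptor gene gas1a (edgeR log2 fold change -2.45, SE 0.33, adjusted p = 0.00136), the ligand-binding antagonist gene hhip (edgeR log2 fold change -4.12, SE 0.60, adjusted p = 0.0017) and the effector gene gli2b (edgeR log2 fold change -3.23, SE 0.56, adjusted p = 0.00556). The higher one was the ligand gene ihha, with 26.5 and 21.8 CPM in osteoblasts and 3.83 and 1.59 CPM in OMP (edgeR log2 fold change 3.24, SE 0.60, adjusted p = 0.00753), and its call was lost without OMP replicate 2 (adjusted p = 0.063). The TGF-beta list had 3 calls of 25 in each direction, or 12% each. Its receptor gene tgfbr2b had 309.8 and 252 CPM in osteoblasts and 50.1 and 41.9 CPM in OMP (edgeR log2 fold change 2.61, SE 0.36, adjusted p = 0.00138). Without OMP replicate 1 that list kept 1 call in each direction, and without osteoblast replicate 2 it kept 1 lower call, while the replicate block gave 6 higher and 6 lower. Of 22 IGF and insulin genes, 2 were called higher and 4 lower, or 9.09 and 18.2%, against 3.22 and 4.9% over all genes. The lower count was 1 without osteoblast replicate 2 and 8 with the replicate block. Of 19 Notch genes, 1 was called higher and 2 lower (5.26 and 10.5%), and the block gave 6 higher and 3 lower. Of 13 Hippo and mechanosensing genes edgeR called 0, while the block gave 2 higher.

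The called genes for chemokines and complement were all lower in osteoblasts. Of 21 chemokine and chemokine receptor genes, 8 were called lower and 0 higher, or 38.1 and 0%, against 4.9 and 3.22% over all genes. At an unadjusted p under 0.05, 1 had a higher value, and DESeq2 called 0 higher. The lower count was 5 without osteoblast replicate 2 and 5 without OMP replicate 1. The chemokine gene cxcl12a, whose product guides stem and immune cells, had 78.2 and 53.6 CPM in osteoblasts and 990.1 and 617 CPM in OMP (edgeR log2 fold change -3.61, SE 0.35, adjusted p = 1.97e-04). The gene ccl25b had 28.1 and 22.7 CPM in osteoblasts and 797 and 857 CPM in OMP (edgeR log2 fold change -5.03, SE 0.44, adjusted p = 1.11e-04). Of 16 complement and C1q-domain genes, 5 were called lower, or 3 without osteoblast replicate 2, among them c4 (edgeR log2 fold change -4.13, SE 0.46, adjusted p = 4.22e-04). The pentraxin gene ptx3a, for a soluble pattern recognition protein, had 7.20 and 5.04 CPM in osteoblasts and 254 and 182 CPM in OMP (edgeR log2 fold change -5.17, SE 0.38, adjusted p = 4.37e-05). Of 15 interleukin and receptor genes, 3 were called lower and held without any 1 of the libraries, among them il15 (edgeR log2 fold change -2.78, SE 0.45, adjusted p = 0.00361), and il13ra2 had 0 reads in both osteoblast libraries and 26 and 111 in OMP, at least 34.1-fold lower in osteoblasts against the same floor. The leukocyte marker ptprc had 0 reads in both osteoblast libraries and 2 and 5 in OMP, and mpeg1.1, of macrophages, had 0 in all 4.

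Integrins are collagen and matrix receptors, and 2 of 20 were called higher and 7 lower. These are 10 and 35% of the list, against 3.22 and 4.9% over all genes. The lower count was 3 without osteoblast replicate 2 and 4 without OMP replicate 1, and the higher count was 1 without osteoblast replicate 1, osteoblast replicate 2 or OMP replicate 2. The collagen receptor gene itga10 had 802 and 891 CPM in osteoblasts and 60.5 and 44.3 CPM in OMP (edgeR log2 fold change 4.02, SE 0.31, adjusted p = 5.37e-05). A second collagen receptor gene, itga11b, had 6.54 and 9.85 CPM in osteoblasts and 61.6 and 89.4 CPM in OMP (edgeR log2 fold change -3.18, SE 0.39, adjusted p = 7.88e-04). The tenascin receptor gene itga9 fell as well (edgeR log2 fold change -3.12, SE 0.48, adjusted p = 0.00265). The cadherin gene cdh11, a marker of osteoblasts, had 1315 and 1074 CPM in osteoblasts and 639 and 568 CPM in OMP and was not called (edgeR log2 fold change 0.99, SE 0.28, adjusted p = 0.0642), with an adjusted p of 0.00216 in the replicate block.

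Guidance cues were called in both directions. The netrin gene ntn1a had 2.29 and 2.98 CPM in osteoblasts and 123 and 126 CPM in OMP (edgeR log2 fold change -5.52, SE 0.39, adjusted p = 4.28e-05), and the repellent gene slit2 fell too (edgeR log2 fold change -2.70, SE 0.40, adjusted p = 0.00223). The semaphorin gene sema5a had 505 and 375 CPM in osteoblasts and 112 and 89.4 CPM in OMP (edgeR log2 fold change 2.13, SE 0.30, adjusted p = 0.00161), and the plexin gene plxnb1a rose (edgeR log2 fold change 2.84, SE 0.48, adjusted p = 0.00469).

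Of 10 syndecan and glypican genes, which encode heparan sulfate carriers at the cell surface, 4 were called higher and 0 lower. These are 40 and 0%, against 3.22 and 4.9% over all genes. At an unadjusted p under 0.05, 1 was lower, and DESeq2 called 0 lower. The glypican gene gpc6a had 344 and 275 CPM in osteoblasts and 62.9 and 44.0 CPM in OMP (edgeR log2 fold change 2.54, SE 0.32, adjusted p = 8.48e-04). Of 85 glycosyltransferase and sulfotransferase genes, 10 were called higher and 3 lower, or 11.8 and 3.53%, against 3.22 and 4.9% over all genes. The higher count was 5 without OMP replicate 2, and the lower count was 0 without osteoblast replicate 1, osteoblast replicate 2 or OMP replicate 1 and 6 with the replicate block. The heparan sulfate polymerase gene ext1c had 120.4 and 140.5 CPM in osteoblasts and 4.38 and 4.62 CPM in OMP (edgeR log2 fold change 4.84, SE 0.38, adjusted p = 6.36e-05). The chondroitin sulfotransferase gene chst3b had 64.1 and 101 CPM in osteoblasts and 1.09 and 1.43 CPM in OMP (edgeR log2 fold change 5.96, SE 0.49, adjusted p = 5.37e-05). The gene chpfb, for a chondroitin polymerising factor, had 45.5 and 51.8 CPM in osteoblasts and 1.09 and 2.23 CPM in OMP (edgeR log2 fold change 4.76, SE 0.60, adjusted p = 9.32e-04).

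Membrane transport differed in single genes. Of 206 solute carrier genes, 12 were called higher and 9 lower, which is 5.83 and 4.37% against 3.22 and 4.9% over all genes. The higher count was 6 without OMP replicate 2, and the lower count was 5 without osteoblast replicate 1 or OMP replicate 1, while the replicate block gave 23 higher and 16 lower. Citrate is a component of bone mineral, and the citrate transporter gene slc13a5b had 35.7 and 37.8 CPM in osteoblasts and 1.37 and 0.637 CPM in OMP (edgeR log2 fold change 5.28, SE 0.67, adjusted p = 4.38e-04). The sodium-proton exchanger gene slc9a1a had 58.9 and 63.9 CPM in osteoblasts and 6.02 and 5.42 CPM in OMP (edgeR log2 fold change 3.43, SE 0.44, adjusted p = 0.00107). The organic solute transporter gene slc51a had 5.23 and 1.15 CPM in osteoblasts and 71.1 and 74.6 CPM in OMP (edgeR log2 fold change -4.61, SE 0.55, adjusted p = 6.96e-04). The gene ano5a, whose human orthologue is mutated in gnathodiaphyseal dysplasia, a bone disease, had 101 and 89.1 CPM in osteoblasts and 16.7 and 13.5 CPM in OMP (edgeR log2 fold change 2.66, SE 0.34, adjusted p = 9.90e-04). Of the aquaporins, aqp3b rose (edgeR log2 fold change 2.87, SE 0.30, adjusted p = 3.20e-04) and aqp3a was not called, with 1197 and 1266 CPM in osteoblasts and 1755 and 2346 CPM in OMP (edgeR log2 fold change -0.74, SE 0.26, adjusted p = 0.139), with an adjusted p of 0.0112 in the replicate block.

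Outside the lists, the genes with the smallest p included tmem119a and sgms2, whose orthologues are linked to bone. The gene tmem119a, for a membrane protein that promotes osteoblast differentiation in mammals, had 587 and 606 CPM in osteoblasts and 6.84 and 6.21 CPM in OMP (edgeR log2 fold change 6.52, SE 0.35, adjusted p = 1.64e-05). The sphingomyelin synthase gene sgms2, mutated in a human form of osteoporosis, had 244 and 431 CPM in osteoblasts and 1.92 and 1.91 CPM in OMP (edgeR log2 fold change 7.44, SE 0.48, adjusted p = 2.52e-05). The carboxypeptidase gene cpa6 had 561 and 607 CPM in osteoblasts and 7.66 and 7.01 CPM in OMP (edgeR log2 fold change 6.32, SE 0.34, adjusted p = 1.64e-05). The lipid transfer gene pltp had 1657 and 1734 CPM in osteoblasts and 81.5 and 72.7 CPM in OMP (edgeR log2 fold change 4.46, SE 0.34, adjusted p = 5.31e-05). Named for fold or level, the tetraspanin gene cd81b had 860.2 and 887 CPM in osteoblasts and 5.75 and 1.75 CPM in OMP (edgeR log2 fold change 7.98, SE 0.76, adjusted p = 1.87e-04). The abundant gene mibp2 had 5959 and 8165 CPM in osteoblasts and 912 and 719 CPM in OMP (edgeR log2 fold change 3.11, SE 0.29, adjusted p = 1.66e-04).

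On the other side, the genes outside the lists that were lower in osteoblasts encode matrix and surface proteins among others. The gene mamdc2b, for a secreted proteoglycan, had 20.3 and 11.7 CPM in osteoblasts and 929 and 911 CPM in OMP (edgeR log2 fold change -5.86, SE 0.40, adjusted p = 3.76e-05). The gene lrrc15, a surface marker of activated fibroblasts in mammals, had 20.9 and 34.6 CPM in osteoblasts and 553 and 812 CPM in OMP (edgeR log2 fold change -4.61, SE 0.42, adjusted p = 1.41e-04). The ectonucleotidase gene entpd1, which removes extracellular ATP, had 9.82 and 6.87 CPM in osteoblasts and 233 and 270.3 CPM in OMP (edgeR log2 fold change -4.93, SE 0.36, adjusted p = 4.37e-05). The mitochondrial carrier gene ucp2 had 503 and 593 CPM in osteoblasts and 2521 and 3043 CPM in OMP (edgeR log2 fold change -2.34, SE 0.27, adjusted p = 5.52e-04). The gene emilin2b, of the elastic fibre interface, fell (edgeR log2 fold change -5.24, SE 0.45, adjusted p = 8.99e-05).

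Transcription factor families beyond the bone list had 0 to 2 genes called higher each, beside 3.22% over all genes. The counts were 1 of 10 Sox, 1 of 18 Fox, 1 of 5 T-box and 2 of 19 nuclear receptor genes, or 10, 5.56, 20 and 10.5%, and each of these 5 calls was lost without at least 1 of the libraries. With the replicate block, 3 Sox, 3 Fox and 4 Krüppel-like genes were called higher. The shear-responsive gene klf2b had 932 and 629 CPM in osteoblasts and 27.4 and 20.1 CPM in OMP (edgeR log2 fold change 5.05, SE 0.44, adjusted p = 1.05e-04). It was the 1 gene called higher among 18 Krüppel-like factors, of which 3 (16.7%) were called lower, or 1 without osteoblast replicate 2 or OMP replicate 1. The early response genes as a whole, which react to tissue dissociation, had 2 calls of 33, namely klf2b and egr3, and egr3 lost its call without osteoblast replicate 1 (adjusted p = 0.125) or OMP replicate 2 (0.144). The block called 5 early response genes higher and 2 lower. Among 35 cell cycle genes 1 was called higher and 2 lower, or 1 lower without any 1 of the libraries. These calls make 2.86 and 5.71% of the list, near the 3.22 and 4.9% over all genes. The median log2 fold change of the list was -0.66, against -0.03 over all genes. The inhibitor gene cdkn1ca had 24 and 42 reads in osteoblasts and 0 in both OMP libraries, at least 29.4-fold higher in osteoblasts against a floor of 3 reads over the group. The mitotic kinesin gene kif20a had 1.64 and 4.12 CPM in osteoblasts and 19.7 and 32.03 CPM in OMP (edgeR log2 fold change -3.10, SE 0.55, adjusted p = 0.00627).

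**Figure D5:**
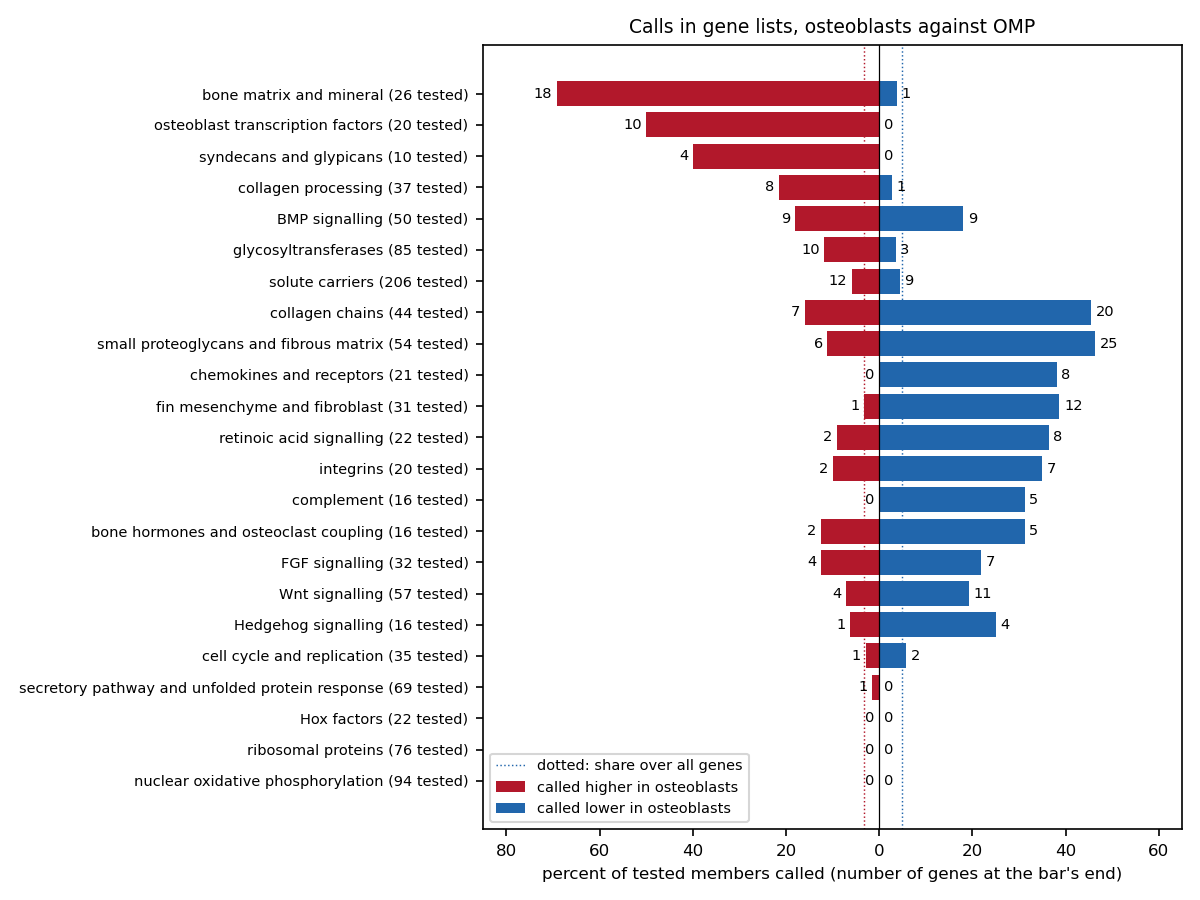
Share of the tested members of each gene list that was called higher (red, left of 0) or lower (blue, right of 0) in osteoblasts than in OMP, with the number of genes at the end of each bar. Dotted lines mark the shares over all genes tested, 3.22% higher and 4.9% lower. Bone matrix and factor lists reach far to the left, matrix, mesenchyme and chemokine lists to the right, and the lowest rows have no bar.

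Markers of other cells that a sort could carry over were looked for next. Leukocyte markers summed to 481 and 319 CPM in osteoblasts and 407 and 265 CPM in OMP, and osteoclast markers to 735 and 576 CPM in osteoblasts and 738 and 669 CPM in OMP, with 0 edgeR calls in either list. Of 10 leukocyte markers, 0 higher and 2 lower had an unadjusted p under 0.05, and DESeq2 called 0 higher and 0 lower. Of 2 pigment cell markers tested, ltk was called lower, and the list summed to 3.27 and 2.29 CPM in osteoblasts and 22.4 and 27.3 CPM in OMP. Of 8 nerve and glia markers, ngfra was called lower, a call lost in 5 of the 6 cases with 1 library left out, and the list summed to 20.6 and 35.7 CPM in osteoblasts and 47.1 and 50.2 CPM in OMP. Of 3 endothelial markers edgeR called 0, with 1 higher and 1 lower at an unadjusted p under 0.05 and 0 called by DESeq2, and of 3 red blood cell markers 1 was called higher, cahz. The replicate block called 1 leukocyte, 1 osteoclast and 2 nerve and glia markers lower and 1 nerve and glia and 1 endothelial marker higher. The endothelial gene cdh5 and the red cell factor gene gata1a had 0 reads in all 4 libraries, and the pigment cell factor gene mitfa had 0 as well. The glial gene sox10 had 2 and 0 reads in osteoblasts and 0 in both OMP libraries. The endothelial gene kdrl had 8 and 6 reads in osteoblasts and 17 and 10 in OMP. Of 28 epidermal genes, 5 were called lower and 1 higher in osteoblasts, or 17.9 and 3.57%, against 4.9 and 3.22% over all genes. The lower count was 2 without osteoblast replicate 2 and 3 without OMP replicate 1 or OMP replicate 2. The keratin gene krt4 had 877 and 1155 CPM in osteoblasts and 2995 and 3476 CPM in OMP (edgeR log2 fold change -1.67, SE 0.27, adjusted p = 0.00358). Defining epidermal genes were low in both groups, with tp63 at 3.93 and 3.44 CPM in osteoblasts and 4.104 and 2.87 CPM in OMP (edgeR log2 fold change 0.11, SE 0.74, adjusted p = 0.979) and cdh1 at 4.58 and 1.83 CPM in osteoblasts and 4.104 and 1.91 CPM in OMP (edgeR log2 fold change 0.11, SE 0.77, adjusted p = 0.98). The keratin gene krt8 was not called, with 1519 and 1691 CPM in osteoblasts and 1323 and 1449.8 CPM in OMP (edgeR log2 fold change 0.21, SE 0.24, adjusted p = 0.791).

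Smooth muscle and mural cell genes gave 3 higher and 5 lower calls of 25, or 12 and 20%, against 3.22 and 4.9% over all genes. The lower ones included acta2, tagln and rgs5a, and the higher ones tpm1. The actin gene acta2 had 0 and 1.15 CPM in osteoblasts and 12.9 and 8.92 CPM in OMP (edgeR log2 fold change -3.96, SE 0.81, adjusted p = 0.0113). The gene tagln, for transgelin, had 15.05 and 9.39 CPM in osteoblasts and 96.8 and 92.6 CPM in OMP (edgeR log2 fold change -2.97, SE 0.38, adjusted p = 9.12e-04). The pericyte gene rgs5a had 1 and 0 reads in osteoblasts and 138 and 279 in OMP, a ratio of OMP to osteoblast reads of 312 (exact 95% counting interval 55.6 to 12340.0). The tropomyosin gene tpm1 went the other way, with 1353 and 1176 CPM in osteoblasts and 161 and 142 CPM in OMP (edgeR log2 fold change 3.06, SE 0.28, adjusted p = 1.43e-04). The summed level of the list was 3353 and 2964 CPM in osteoblasts, against 2746 and 2561 CPM in OMP, and the part of mural cells in the matrix genes that were lower in osteoblasts was not tested.

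Proteases of the matrix were called lower more often than higher. Of 18 matrix metalloproteinase and inhibitor genes, 1 was called higher and 6 lower, or 5.56 and 33.3%, against 3.22 and 4.9% over all genes. Log2 fold changes in the list ran from -4.06 to 8.92. The higher call and 2 of the 6 lower calls held without any 1 of the libraries. The lower count was 3 without osteoblast replicate 2 or OMP replicate 2, while the replicate block gave 3 higher. The membrane-bound mmp15a had 44.8 and 43.8 CPM in osteoblasts and 157 and 159 CPM in OMP (edgeR log2 fold change -1.83, SE 0.29, adjusted p = 0.00334). The abundant gelatinase gene mmp2 was not called, with 2230.1 and 2372 CPM in osteoblasts and 2621 and 2941 CPM in OMP (edgeR log2 fold change -0.27, SE 0.24, adjusted p = 0.689). Of 28 ADAM and ADAMTS genes, 1 was called higher and 5 lower, or 3.57 and 17.9%, so the higher share was near that over all genes. The lower count was 3 without osteoblast replicate 2, and the higher count was 2 without OMP replicate 1 and 3 with the replicate block. The higher one was adamts10 (edgeR log2 fold change 2.75, SE 0.42, adjusted p = 0.00255), and adamts2, for a procollagen N-proteinase, was lower, with 82.8 and 94.6 CPM in osteoblasts and 370.4 and 392 CPM in OMP (edgeR log2 fold change -2.10, SE 0.28, adjusted p = 0.00135).

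General cell functions gave 0 calls in a core set and calls near the share over all genes in some other lists. The core set joins 8 lists that each had 0 edgeR calls, so its count of 0 follows from the choice of lists. Over 462 genes for ribosomal proteins, oxidative phosphorylation, translation, the proteasome, splicing, histones, Rab GTPases, the citrate cycle and amino acid synthesis, edgeR called 0. At an unadjusted p under 0.05, 10 were higher and 5 lower, and DESeq2 called 1 higher and 2 lower, while the replicate block called 9 higher and 5 lower. Some other such lists had 1 or 2 calls. Of 29 glycolysis and glucose transport genes 1 was higher (3.45%). Lower were 2 of 37 autophagy and lysosome genes (5.41%) and 2 of 38 tubulin and kinesin genes (5.26%). These shares were near those over all genes, 3.22% higher and 4.9% lower. The replicate block gave 2 higher and 4 lower for autophagy and lysosome. The ribosomal protein gene rps2 had 2938 and 3469 CPM in osteoblasts and 3122 and 3912 CPM in OMP (edgeR log2 fold change -0.13, SE 0.26, adjusted p = 0.894). The ATP synthase gene atp5b had 599 and 694 CPM in osteoblasts and 521 and 511 CPM in OMP (edgeR log2 fold change 0.33, SE 0.25, adjusted p = 0.627).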

How the data were processed

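RNA of sorted fin cells was sequenced, 2 libraries a group. Reads were aligned and counted by the authors with HISAT2 2.2.1 and featureCounts 2.0.3 on GRCz11, per the submitters' processing notes, and the deposited table holds raw counts per transcript. RPKM and TPM columns deposited beside the counts were not used here. The strand setting of the counting is unknown here, and overlapping genes cannot be separated.

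Of 75811 transcript rows, the one with the highest summed count was kept for each of 30841 gene symbols, as summing a gene's transcripts gave a median ratio of 2 to the highest one. Counts were normalised by TMM and tested with edgeR 4.0.16 in R 4.3.3 (filterByExpr by group, quasi-likelihood test, Benjamini-Hochberg adjustment) in 1 fit of all 6 libraries by group. Fold changes are on the log2 scale of that fit, osteoblasts over OMP, SE is the fold change over the root of the F statistic, and CPM are TMM-scaled. The 2 groups had 3915569 to 5281896 reads per library. Ratios of genes with 1 to 3 reads carry exact 95% intervals, and 0 reads were set to 3 over the group. These limits cover counting error alone, as no molecular identifiers are described.

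Members and gene lists were chosen with earlier results of these data known, and 4 symbol patterns were corrected after the values were seen. Genes were named by role, size of change, level and smallest p, with all members of the osteoblast factor and bone matrix lists, and fewer where values would repeat. 1 member of the factor list is not reported here. Outside that rule, col6a3, col4a1, col4a2, elna, mfap5, fbn1, kera, prrx1b, and1, and2, notum1b, bambia, grem2b, grem1b, col14a1a, col15a1b, col4a5 and col4a6 were named after their values were seen. Alternatives were DESeq2 1.42.0, other scaling factors, no filter, the 4 libraries alone, a replicate block, the longest transcript, no heat shock genes, each library left out, and, chosen after seeing the data, edgeR's earlier quasi-likelihood version.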

Additional observations from a re-analysis of the deposited data

How the results depend on the processing

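With the replicate number added as a term (replicate block), 794 genes were called higher and 1109 lower in osteoblasts, and 608 calls fell in the lists, against 431, 656 and 377 without it. All 1087 calls made without the block were among them. The labels do not say what a replicate number shares, so the fit without it stays the main one and the block is given beside the results it changes. Libraries of the same number deviated together, with correlations of 0.382 for osteoblasts with OMP, 0.296 for osteoblasts with CMP and 0.337 for OMP with CMP, but only 2 numbers exist.

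Leaving out 1 library in turn gave 221 to 378 genes called higher, 316 to 564 lower and 248 to 340 in the lists. The count of higher genes was 286 without osteoblast replicate 2 and 221 without OMP replicate 2. Without osteoblast replicate 2, 316 genes were lower and 248 calls fell in the lists. The cause was not tested. Under DESeq2 the counts were 495 higher and 799 lower, and under edgeR's earlier quasi-likelihood version, chosen after seeing the data, 365 and 618. Every other alternative listed with the methods gave 401 to 475 higher and 580 to 746 lower. Of 164 named and called genes, 149 were called without any 1 of the libraries, 6 lost the call in another setting and 0 changed sign. Another 10 named genes without a call gained one, all of them under the replicate block. They were col1a2 (adjusted p = 0.00574 in edgeR), col12a1a, cdh11, enpp1, prrx1a, slc20a2, pdgfra, aqp3a, bmp4 and dlx4a. Among these 10, DESeq2 also called 3, and upper-quartile factors, no filter and no heat shock genes gave calls for 2 each. With 2 libraries a group and 3 residual degrees of freedom, small differences of genes with few reads could not be resolved.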
